A study of Homo sapiens with 9 samples.

Results

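The beta-tubulin isotypes are the 8 genes TUBB, TUBB4B, TUBB6, TUBB2A, TUBB2B, TUBB3, TUBB4A and TUBB1. They were taken as every probe set annotated to one of these genes, which gave 13 of 22215 human probe sets on the array. Of the 13 probe sets 12 name 1 gene, and 1 (209372_x_at) names both TUBB2B and TUBB2A. Intensities were measured on Affymetrix HU133A arrays in MDA-MB-231 cells, with 3 arrays for each of 3 groups. MDA-MB-231 is an established line of basal-like, mesenchymal-type breast cancer cells. The paclitaxel-resistant cells were kept in 7 nM paclitaxel and 1 µM verapamil. The docetaxel-resistant cells were kept in 2 nM docetaxel and 1 µM verapamil. The sensitive cells received 1 µM verapamil and no taxane. Verapamil, which all groups shared, is a calcium channel blocker that also inhibits the drug efflux pump P-glycoprotein. RNA came from 3 independent passages per group, and each group is 1 line, so every p-value measures the spread between passages of single lines. Paclitaxel and docetaxel share the taxane core and differ in the side chain and in an acetyl group on the core, but they were given at different concentrations to different lines, so the comparison between the resistant lines is one between lines and not between compounds.

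Microtubules are polymers of alpha- and beta-tubulin dimers, and taxanes bind the beta subunit on the inner face of the polymer and stabilize it. The isotypes are separate genes whose proteins differ most in the acidic carboxy-terminal tail. TUBB and TUBB4B are used by most dividing cells, TUBB6 is also broadly expressed, TUBB2A, TUBB2B, TUBB3 and TUBB4A are best known from neurons, and TUBB1 from megakaryocytes and platelets. TUBB3 has often been studied as a marker of taxane resistance in tumours, and a change in the mix of isotypes is one of the proposed routes to such resistance. The comparison asks whether the mRNA of the target's isotypes differed between the resistant lines and the sensitive one.

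Promoters are shown for the isotypes that were well above background and have a single start in the RefSeq table of build GRCh38.p14. These are the constitutive TUBB4B and the class II isotypes TUBB2A and TUBB2B. Each sequence is the 250 bases before the start, written along the gene's strand. Capitals mark 3 short motifs or their reverse complements. CCAAT is the letters of the box bound by NF-Y. The letters TATAA are the core of the box bound by the general factor TFIID. Sites of SP1 often hold GGGCGG. Both strands were searched, and no capitals of one motif overlapped those of another.
TUBB4B: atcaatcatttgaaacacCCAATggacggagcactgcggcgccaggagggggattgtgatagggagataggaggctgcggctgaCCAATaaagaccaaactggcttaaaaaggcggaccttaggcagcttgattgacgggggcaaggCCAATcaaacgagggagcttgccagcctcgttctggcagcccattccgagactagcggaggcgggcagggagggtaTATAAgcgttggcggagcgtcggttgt
TUBB2A: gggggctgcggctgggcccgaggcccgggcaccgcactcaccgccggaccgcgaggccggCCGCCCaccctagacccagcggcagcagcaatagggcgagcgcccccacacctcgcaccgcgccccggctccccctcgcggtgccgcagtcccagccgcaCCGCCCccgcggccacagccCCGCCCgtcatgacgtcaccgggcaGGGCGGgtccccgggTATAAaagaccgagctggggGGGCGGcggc
TUBB2B: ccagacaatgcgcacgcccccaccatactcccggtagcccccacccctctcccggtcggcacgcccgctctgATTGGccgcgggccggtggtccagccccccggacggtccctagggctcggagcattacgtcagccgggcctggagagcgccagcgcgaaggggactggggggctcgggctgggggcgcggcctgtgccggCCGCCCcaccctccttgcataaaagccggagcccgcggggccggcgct
The TUBB4B window lies at chr9:137241037-137241286 on the plus strand, and it holds 3 CCAAT boxes, the first bases of which are at -232, -166 and -103 from the start, and a TATAA at -27, with no GGGCGG. The TUBB2A window lies at chr6:3157545-3157794 on the minus strand, with a TATAA at -30 and 5 GGGCGG. The TUBB2B window lies at chr6:3227654-3227903 on the minus strand, with 1 CCAAT at -178 and 1 GGGCGG at -48. All 8 genes matched the table, with 12 starts, of which 6 windows hold a CCAAT, 3 a TATAA and 8 a GGGCGG. Among the windows of all starts in the table, 32.0% hold a CCAAT, 18.9% a TATAA and 42.6% a GGGCGG. These matches describe the letters only, and the binding of any factor was not measured.

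The signal of the isotypes spanned from bright to the edge of detection. Over the 9 arrays the brightest probe set averaged an intensity of 5889 for TUBB, 5129.5 for TUBB4B, 2674 for TUBB3, 1183 for TUBB6, 772 for TUBB2A and 479.9 for TUBB2B. The same average was 15.5 for TUBB1 and 12.7 for TUBB4A, below the offset of 16 added before taking logs. This is an order of signal, which depends on the probes, and not an order of transcript number. Both TUBB3 probe sets carry the suffix _x_at, so their signal may include other transcripts. The summed intensity of 10 neuron markers lay between 234 and 258 in paclitaxel-resistant, 219 and 247 in docetaxel-resistant and 208 and 237 in sensitive arrays. The dimmest of these markers, ELAVL3, was at 0 on at least 1 array and reached 9.97. Of the 10, MAPT alone was called, higher in paclitaxel-resistant than in sensitive cells (limma adjusted p 0.0204), and its part in the tubulin values was not tested.

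**Figure D1:**
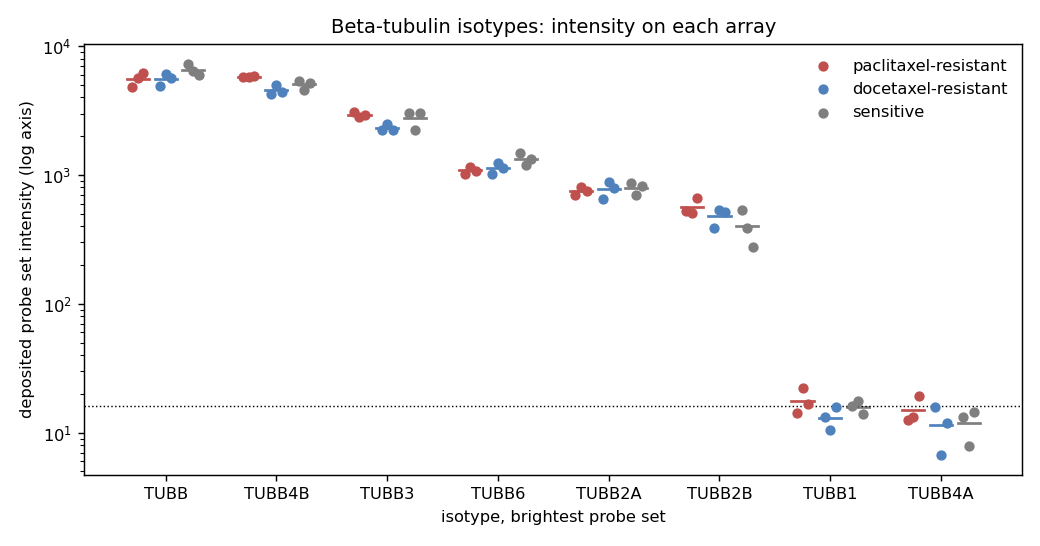
Deposited intensity (log axis) of the brightest probe set of each beta-tubulin isotype on every array, for paclitaxel-resistant, docetaxel-resistant and sensitive cells (3 passages each). The points of TUBB1 and TUBB4A sit near the dotted line at 16, and those of the other isotypes lie at 277 or higher with little separation between groups.

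No beta-tubulin probe set passed the test in any comparison. Between paclitaxel-resistant and sensitive cells 0 of 13 were called, where 18.6% of all probe sets were (limma, Benjamini-Hochberg adjusted p below 0.05). Between docetaxel-resistant and sensitive cells it was again 0 of 13, against 17.7% of all. Between paclitaxel- and docetaxel-resistant cells it was 0 of 13, against 1.60% of all. At an unadjusted p below 0.05 the same fit counted 5 of 13 between paclitaxel-resistant and sensitive cells (29.8% of all probe sets), 2 between docetaxel-resistant and sensitive cells (29.5%) and 4 between the resistant lines (12.2%). The median log2 difference of the 13 was 0.05 (all probe sets -0.03) for paclitaxel-resistant minus sensitive, -0.18 (all -0.05) for docetaxel-resistant minus sensitive and 0.20 (all 0.01) for paclitaxel- minus docetaxel-resistant. For the 11 probe sets with a mean intensity above 100, the 95% intervals of all 3 differences lay between -0.68 and 0.97 on the log2 scale.

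**Figure D2:**
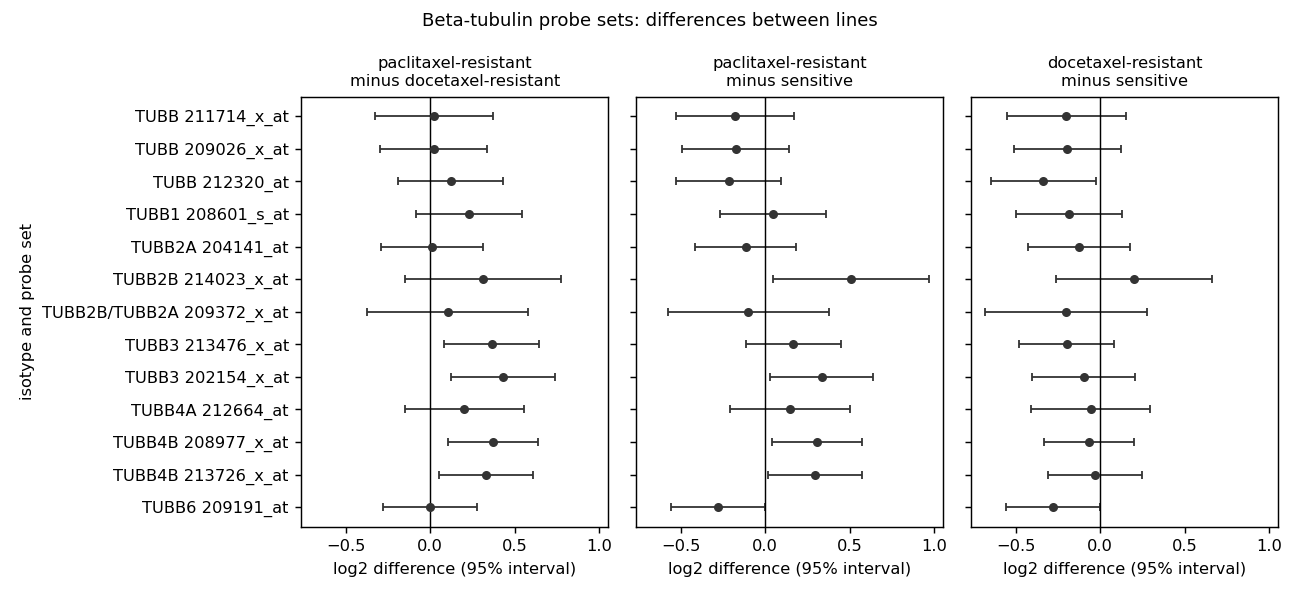
Log2 difference of each beta-tubulin probe set with its 95% interval (limma), for paclitaxel- minus docetaxel-resistant, paclitaxel-resistant minus sensitive and docetaxel-resistant minus sensitive. The intervals of TUBB4B and TUBB3 lie above 0 for paclitaxel- minus docetaxel-resistant, yet none of these differences passed after adjustment over all probe sets.

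Of the isotypes that dividing cells use most, TUBB4B was brighter on the paclitaxel-resistant arrays than on any other. Probe set 208977_x_at read 5729.6, 5751 and 5885 in paclitaxel-resistant, 4252, 4975 and 4419 in docetaxel-resistant and 5397, 4538 and 5219.6 in sensitive cells. All paclitaxel-resistant arrays lay above all arrays of the other lines, and the docetaxel-resistant and sensitive arrays overlapped. The log2 difference for paclitaxel- minus docetaxel-resistant was 0.37 (95% interval 0.10 to 0.64, SE 0.12), a fold of 1.29, with a limma adjusted p of 0.188. For paclitaxel-resistant minus sensitive it was 0.31 (0.04 to 0.57) with an adjusted p of 0.112, the smallest of any beta-tubulin. For docetaxel-resistant minus sensitive it was -0.07 (-0.33 to 0.20). With an offset of 64 in place of 16 the first of these differences had an adjusted p of 0.0259 and the second 0.0118, and with a spread prior that follows intensity and downweights outliers they had 0.0459 and 0.0231, so the call on TUBB4B turned on those settings. The other TUBB4B probe set, 213726_x_at, read 5432, 5713 and 5762 in paclitaxel-resistant, 4143, 4954 and 4504 in docetaxel-resistant and 5555, 4469 and 4858 in sensitive cells. Here the paclitaxel-resistant arrays lay above the docetaxel-resistant ones and overlapped the sensitive ones. Its differences were 0.33 between the resistant lines (adjusted p 0.291) and 0.29 for paclitaxel-resistant minus sensitive (adjusted p 0.143).

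TUBB, the other constitutive isotype, had negative differences from the sensitive cells on all its probe sets. Its brightest probe set, 211714_x_at, read 4781, 5643 and 6211 in paclitaxel-resistant, 4868, 6113 and 5657 in docetaxel-resistant and 7325, 6402.5 and 6001 in sensitive cells. The groups overlapped, with differences of -0.18 (-0.53 to 0.17) for paclitaxel-resistant minus sensitive and -0.20 (-0.55 to 0.15) for docetaxel-resistant minus sensitive. Probe set 212320_at, the only TUBB probe set without a suffix for shared probes, read 2331, 2974 and 2670.0 in paclitaxel-resistant, 2230.3, 2753 and 2553 in docetaxel-resistant and 3400.1, 3067 and 3369 in sensitive cells. Every resistant array was below every sensitive one in the deposited values. After quantile normalization this held for the docetaxel-resistant arrays alone, with differences of -0.34 (-0.65 to -0.03, limma adjusted p 0.135) for docetaxel-resistant and -0.22 (-0.53 to 0.09, adjusted p 0.357) for paclitaxel-resistant minus sensitive. With array medians set equal in place of quantile normalization the docetaxel-resistant difference was -0.52 with an adjusted p of 0.0322. Between the resistant lines the difference of 212320_at was 0.12 (-0.19 to 0.43).

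TUBB6, the most divergent of the widely expressed isotypes, read 1024, 1159 and 1078 in paclitaxel-resistant, 1021, 1243 and 1142 in docetaxel-resistant and 1472, 1187 and 1323 in sensitive cells. The paclitaxel-resistant arrays lay below the sensitive ones, and the docetaxel-resistant arrays overlapped them in the deposited values but not after normalization. The log2 difference was -0.28 (-0.56 to -0.00) against sensitive cells for the paclitaxel-resistant (adjusted p 0.166, limma) and the docetaxel-resistant line (adjusted p 0.169), and the interval between the resistant lines ran from -0.28 to 0.28. With an offset of 64 both differences from sensitive cells were -0.27, with adjusted p of 0.0397 for paclitaxel-resistant and 0.0415 for docetaxel-resistant cells.

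TUBB3, the neuronal isotype studied in taxane-resistant tumours, was most separated between the resistant lines, without passing the test. Probe set 213476_x_at read 3086, 2798 and 2909 in paclitaxel-resistant, 2245, 2504 and 2245 in docetaxel-resistant and 3032, 2235 and 3016 in sensitive cells. Probe set 202154_x_at read 2893, 2596 and 3071 in paclitaxel-resistant, 1958, 2386 and 2266 in docetaxel-resistant and 2918, 2167 and 2019.6 in sensitive cells. On both probe sets the paclitaxel-resistant arrays lay above the docetaxel-resistant ones, and the sensitive arrays spread across both ranges. For paclitaxel- minus docetaxel-resistant the log2 differences were 0.36 (0.08 to 0.64, fold 1.29) for 213476_x_at and 0.43 (0.13 to 0.74, fold 1.35) for 202154_x_at, with limma adjusted p of 0.228 and 0.181. Against sensitive cells, paclitaxel-resistant cells differed by 0.16 (-0.12 to 0.45) on 213476_x_at and 0.33 (0.03 to 0.64, adjusted p 0.132) on 202154_x_at. Docetaxel-resistant cells differed from sensitive cells by -0.20 on 213476_x_at and -0.10 on 202154_x_at.

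Of the 2 class II isotypes, TUBB2A showed no separation. It read 698, 805 and 745 in paclitaxel-resistant, 648, 875 and 793 in docetaxel-resistant and 864, 697 and 823 in sensitive cells, with overlapping groups. Its 95% interval was -0.42 to 0.18 for paclitaxel-resistant minus sensitive and -0.29 to 0.31 between the resistant lines. TUBB2B read 526, 502 and 658 in paclitaxel-resistant, 389.7, 532 and 512 in docetaxel-resistant and 535, 386 and 277 in sensitive cells. The sensitive arrays were the most spread, and the groups overlapped in the deposited values. For paclitaxel-resistant minus sensitive the log2 difference of TUBB2B was 0.51 (0.05 to 0.97, limma adjusted p 0.126). Without sensitive replicate 3 it was 0.25, with an adjusted p of 0.401. The probe set that names both genes read between 171 and 303 over all arrays and differed by at most 0.20 in size in any comparison.

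TUBB1, the platelet isotype, read 14.3 to 22.1 in paclitaxel-resistant, 10.5 to 15.7 in docetaxel-resistant and 13.9 to 17.5 in sensitive cells. TUBB4A read 12.5 to 19.1 in paclitaxel-resistant, 6.68 to 15.8 in docetaxel-resistant and 7.82 to 14.4 in sensitive cells. Values this low carry no order. The 6 megakaryocyte and platelet markers had a summed intensity of 149 to 178 in paclitaxel-resistant, 153 to 158 in docetaxel-resistant and 147 to 163 in sensitive cells, and none was called by limma in any comparison.

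Beta-tubulin probe sets whose groups did not overlap in normalized values were counted beside all probe sets. For paclitaxel-resistant against sensitive cells they were 5 of 13, beside 32.1% of all probe sets. For docetaxel-resistant against sensitive cells they were 4 of 13, beside 34.2% of all. Between the resistant lines they were 5 of 13, beside 19.3% of all. These 5 were both probe sets of TUBB4B, both of TUBB3 and that of TUBB2B, and all 5 carry the suffix _x_at, which is described below.

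The mix of isotypes was then compared as each isotype's share of the summed intensity of the 8 brightest probe sets, which takes out any scale common to an array. On the paclitaxel-resistant arrays TUBB4B held more of the signal and TUBB and TUBB6 held less, while the docetaxel-resistant and sensitive shares of all 3 overlapped. TUBB4B held 36.1, 34.5 and 33.6% of the sum in paclitaxel-resistant, 31.6, 30.6 and 29.9% in docetaxel-resistant and 28.9, 29.3 and 31.3% in sensitive cells. The paclitaxel-resistant shares did not overlap with the others, and the mean was 34.7 ± 1.28% in paclitaxel-resistant against 30.7 ± 0.874% in docetaxel-resistant and 29.8 ± 1.26% in sensitive cells (SD, n = 3 each). TUBB held 30.1, 33.8 and 35.4% in paclitaxel-resistant, 36.2, 37.6 and 38.2% in docetaxel-resistant and 39.3, 41.4 and 36.0% in sensitive cells. All paclitaxel-resistant shares of TUBB were below all the others, with mean differences of -5.75 points from sensitive and -4.21 points from docetaxel-resistant cells. TUBB6 held 6.45, 6.94 and 6.15% in paclitaxel-resistant, 7.59, 7.65 and 7.72% in docetaxel-resistant and 7.89, 7.67 and 7.93% in sensitive cells, again with the paclitaxel-resistant shares below the rest. Each of these separations had a two-sided exact permutation p of 0.10, the smallest that 3 arrays against 3 can give, so none can pass 0.05, and an adjusted p of 0.30 over the 24 share comparisons. The 3 isotypes' separations are not independent of each other. In mean deposited intensity, TUBB (211714_x_at) was at 5545 in paclitaxel-resistant and 5546 in docetaxel-resistant cells. In the same order TUBB6 was at 1087 and 1135, and TUBB4B (208977_x_at) at 5789 and 4549.

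TUBB2B held 3.36 ± 0.375% in paclitaxel-resistant, 3.21 ± 0.288% in docetaxel-resistant and 2.34 ± 0.619% in sensitive cells, and the shares of both resistant lines lay above those of sensitive cells (exact permutation p 0.10 each). For the docetaxel-resistant line the gap was narrow, with a lowest share of 2.90% against a highest sensitive share of 2.87%. Sensitive replicate 3 had the lowest TUBB2B share, 1.66%. The share of TUBB3 was 17.6 ± 1.60% in paclitaxel-resistant, 15.8 ± 0.816% in docetaxel-resistant and 16.3 ± 1.82% in sensitive cells, with overlap in each pair. TUBB2A held 4.49 ± 0.297% in paclitaxel-resistant, 5.19 ± 0.320% in docetaxel-resistant and 4.69 ± 0.218% in sensitive cells. TUBB1 and TUBB4A each stayed at or below 0.132%. The sum itself was 16695 ± 825 in paclitaxel-resistant, 14836 ± 1404 in docetaxel-resistant and 16937 ± 1607 in sensitive cells, and the groups overlapped. A share is one of probe set signal, and it shifted with the probe sets used. Over the 4 isotypes with a probe set that has no suffix for shared probes, with TUBB read from 212320_at and TUBB4B, TUBB3, TUBB2B and TUBB1 left out, the TUBB share of paclitaxel-resistant cells differed by -1.78 points from that of sensitive cells and by 2.16 points, the opposite sign, from that of docetaxel-resistant cells.

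**Figure D3:**
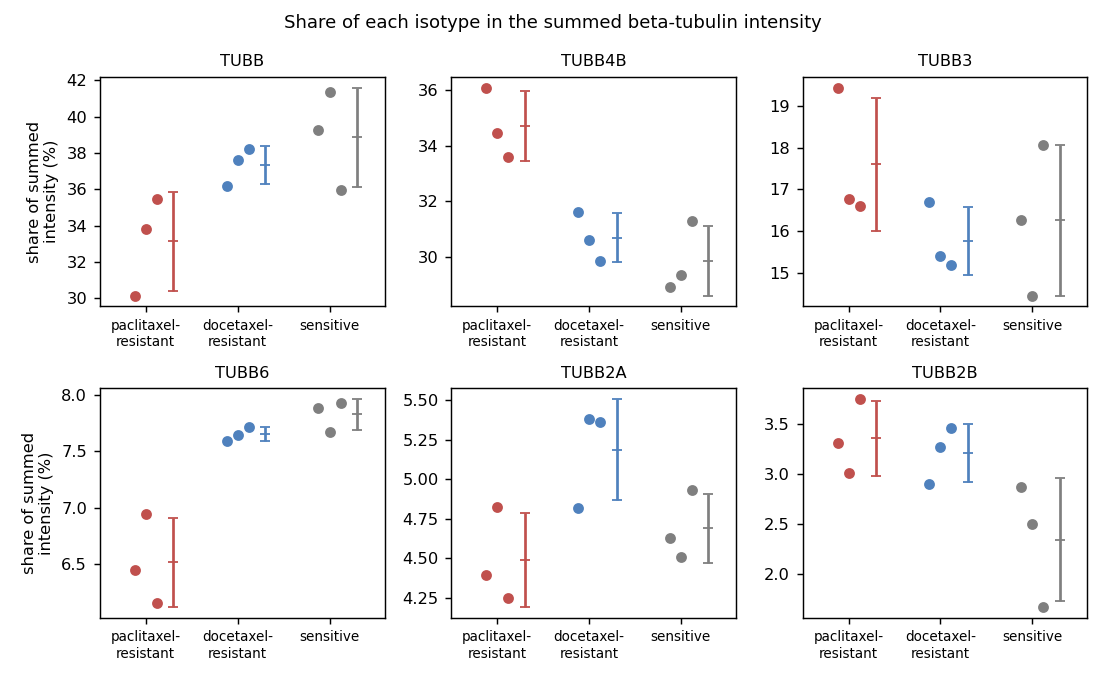
Share of each of 6 isotypes in the summed beta-tubulin intensity (percent), per array with the mean and SD for paclitaxel-resistant, docetaxel-resistant and sensitive cells (n = 3 each). The TUBB4B shares of paclitaxel-resistant arrays, 33.6 to 36.1%, lie above all others, and their TUBB and TUBB6 shares lie below all others.

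The 13 probe sets may not all be separate measurements, which the likeness of their profiles alone cannot decide. The suffixes _x_at and _s_at mark probe sets whose probes can match more than 1 transcript, and 9 of the 13 carry one, among them every probe set of TUBB4B, TUBB3, TUBB2B and TUBB1. The likeness of a pair was measured as the root mean square log2 difference of centred normalized values over the 9 arrays, where 0 means the same profile. The root mean square distance of a probe set from its own mean ran from 0.12 (TUBB2A) to 0.326 (TUBB2B). Probe sets that vary little are close to each other for that reason too. The 2 TUBB4B probe sets differed by 0.0482 and the 2 brighter TUBB probe sets by 0.0454. TUBB3 probe set 202154_x_at was closer to TUBB4B (0.0785 to 213726_x_at and 0.0902 to 208977_x_at) than to the other TUBB3 probe set (0.158). Probe set 213476_x_at of TUBB3 lay at 0.102 from TUBB4B 208977_x_at. Among probe sets with no such suffix, TUBB 212320_at lay at 0.0832 from TUBB6 and 0.0967 from TUBB2A, and TUBB2A at 0.0865 from TUBB6. These figures describe 9 arrays of 3 lines, and how much of the likeness of TUBB3 and TUBB4B comes from shared probes was not tested. In a bulk sample, fewer cells with a transcript and less of it per cell cannot be told apart.

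New tubulin needs a folding line: prefoldin hands the chain to the ring-shaped chaperonin, and the tubulin cofactors then join beta- to alpha-tubulin. Of 43 listed genes for folding, tail modification and isotype regulation 36 were measured, meaning that a probe set named the gene alone. In paclitaxel-resistant against sensitive cells 9 were higher, 2 lower and 25 not called (median 0.20). In docetaxel-resistant against sensitive cells the counts were again 9, 2 and 25 (median 0.15). Between the resistant lines 1 was higher and 35 were not called. The background on the probe sets of the whole array was 9.21% higher and 9.37% lower for paclitaxel-resistant, and 9.34% higher and 8.32% lower for docetaxel-resistant against sensitive cells, and 0.801% in either direction between the resistant lines. Those shares count all probe sets, whereas each related gene was read from its brightest one, so the units differ. With 1 row per gene, that of the highest mean, limma called 2529 of 11963 genes for docetaxel-resistant minus sensitive cells. Both comparisons with sensitive cells share the sensitive arrays. The 11 calls for paclitaxel-resistant cells became 5 without paclitaxel-resistant replicate 1 or sensitive replicate 2, 6 without paclitaxel-resistant replicate 2 or sensitive replicate 3 and 7 without paclitaxel-resistant replicate 3. The 11 for docetaxel-resistant cells became 2 without docetaxel-resistant replicate 3 or sensitive replicate 2, 4 without sensitive replicate 3, 6 without paclitaxel-resistant replicate 2 or 3 and 7 without docetaxel-resistant replicate 2. Of the calls against sensitive cells, those of TBCC and PFDN1 in both lines, and those of CCT8 and EPAS1 in paclitaxel-resistant cells, passed under every alternative that could be run.

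Of the 7 measured chaperonin subunits 5 (CCT2, CCT4, CCT5, CCT6A and CCT8) were higher in paclitaxel-resistant cells, and the same 5 in docetaxel-resistant cells, against the sensitive arrays common to both comparisons. The median log2 difference of the 7 was 0.61 for paclitaxel-resistant and 0.54 for docetaxel-resistant cells, and CCT3 and CCT7 were not called. CCT8 read 1376, 878 and 844 in paclitaxel-resistant, 607, 774 and 1518 in docetaxel-resistant and 670, 155 and 158 in sensitive cells. The first sensitive passage lay within the range of the docetaxel-resistant arrays, far above the other 2 sensitive ones. CCT8 differed by 1.89 ± 0.43 for paclitaxel-resistant (SE, limma adjusted p 0.00929) and by 1.67 ± 0.43 for docetaxel-resistant minus sensitive (adjusted p 0.0186). Its other probe set, 210436_at, differed by -0.04 and -0.05, at a mean intensity of 43.2 against 776 for the brightest. CCT5 read 1823, 1940 and 1770 in paclitaxel-resistant, 1807, 1949 and 2529 in docetaxel-resistant and 1773, 920 and 951 in sensitive cells. Its docetaxel-resistant difference was 0.78 ± 0.20 (limma adjusted p 0.0157), and the first sensitive passage again lay close to the resistant arrays. Without docetaxel-resistant replicate 3, sensitive replicate 2 or sensitive replicate 3 the adjusted p of that difference was 0.0711, 0.0563 or 0.0653 for CCT5 and 0.0817, 0.0693 or 0.0818 for CCT8. The chaperonin count depended on the processing and on single arrays. With an offset of 1 it was 1 for paclitaxel-resistant and 0 for docetaxel-resistant cells, and without normalization between arrays it was 1 for paclitaxel-resistant and 2 for docetaxel-resistant cells. With array medians set equal it was 2 for each line, and with a replicate block 4 for paclitaxel-resistant and 3 for docetaxel-resistant cells. Without both sensitive replicate 2 and docetaxel-resistant replicate 3, the arrays with the extreme medians, it was 2 for paclitaxel-resistant and 0 for docetaxel-resistant cells, and without _x_at and _s_at probe sets, which leaves out some of the subunits, it was 2 for each line. Fitted on the 6 arrays compared alone, it was 2 for docetaxel-resistant cells. For docetaxel-resistant cells it was 0 without docetaxel-resistant replicate 3, sensitive replicate 2 or sensitive replicate 3, 3 without docetaxel-resistant replicate 1 or 2, and 2 without paclitaxel-resistant replicate 2 or 3. For paclitaxel-resistant cells it was 1 without paclitaxel-resistant replicate 1 or sensitive replicate 2, 2 without paclitaxel-resistant replicate 2 or sensitive replicate 3, and 3 without paclitaxel-resistant replicate 3.

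Of the 5 measured prefoldin subunits 2 (PFDN1 and PFDN4) were higher in both resistant lines, and the PFDN4 calls were lost under 10 of 20 alternatives for paclitaxel-resistant and 5 of 20 for docetaxel-resistant cells. PFDN1 read 772, 793 and 697 in paclitaxel-resistant, 877, 1055 and 1012 in docetaxel-resistant and 594, 380 and 432 in sensitive cells. No resistant array overlapped a sensitive one, and the differences were 0.67 ± 0.13 for paclitaxel-resistant (SE, limma adjusted p 0.00460) and 1.00 ± 0.13 for docetaxel-resistant minus sensitive cells (adjusted p 0.000403). Among the 6 cofactors TBCC, which triggers release of the finished dimer, was the clearest. TBCC read 107, 104 and 101 in paclitaxel-resistant, 96.9, 151 and 138 in docetaxel-resistant and 273, 248 and 313 in sensitive cells. It was lower in both resistant lines without overlap, by -1.32 ± 0.15 in paclitaxel-resistant (limma adjusted p 9.63e-05) and -1.20 ± 0.15 in docetaxel-resistant cells (adjusted p 0.000206). TBCA, which holds free beta-tubulin, was higher in paclitaxel-resistant cells (0.50, adjusted p 0.0484), a call lost under 13 of 21 alternatives, and TBCE, which binds alpha-tubulin, in docetaxel-resistant cells (0.58, adjusted p 0.0469), a call lost under 16 of 20.

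Of the 11 measured enzymes that act on tubulin tails or on alpha-tubulin acetylation, TTLL1, a catalytic subunit of the polyglutamylase complex, separated the lines. TTLL1 read 87.2, 80.0 and 90.7 in paclitaxel-resistant, 45.4, 47.0 and 36.6 in docetaxel-resistant and 50.3, 48.1 and 56.1 in sensitive cells. Its log2 difference was 0.86 ± 0.14 for paclitaxel- minus docetaxel-resistant (limma adjusted p 0.00908) and 0.51 ± 0.14 for paclitaxel-resistant minus sensitive cells (adjusted p 0.0198). The second call was lost without paclitaxel-resistant replicate 2 (adjusted p 0.0534) or 3 (0.0688), or sensitive replicate 1 (0.0526) or 3 (0.0527). AGTPBP1, a deglutamylase, was higher in docetaxel-resistant than in sensitive cells (0.81, adjusted p 0.0477) on its brightest probe set, with 0.07 on the other, a call lost under 14 of 20 alternatives. HDAC6, a tubulin deacetylase, read 208, 159 and 186 in paclitaxel-resistant, 130, 144 and 118 in docetaxel-resistant and 165, 192 and 234 in sensitive cells. It was lower in docetaxel-resistant than in sensitive cells by -0.70 ± 0.17 (limma adjusted p 0.0136), with -0.03 and -0.47 on its other 2 probe sets, and the adjusted p was 0.0630 without docetaxel-resistant replicate 3, 0.0531 without sensitive replicate 2 or 3, and 0.151 (difference -0.47) without both sensitive replicate 2 and docetaxel-resistant replicate 3. Among 6 regulators of isotype genes EPAS1 (HIF-2 alpha, reported to act on TUBB3) was the 1 called. EPAS1 read 437, 366 and 359 in paclitaxel-resistant, 551, 541 and 521 in docetaxel-resistant and 553, 708 and 746 in sensitive cells. It differed by -0.77 ± 0.18 for paclitaxel-resistant minus sensitive (limma adjusted p 0.00982). Its other probe set differed by -0.31, at a mean intensity of 27.6 against 532 for the brightest. Of the genes for autoregulation of tubulin mRNA 1 (SCAPER) was measured, and it was not called. Its level was low, with mean intensities of 24.8 in paclitaxel-resistant, 33.1 in docetaxel-resistant and 19.9 in sensitive cells.

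**Figure D4:**
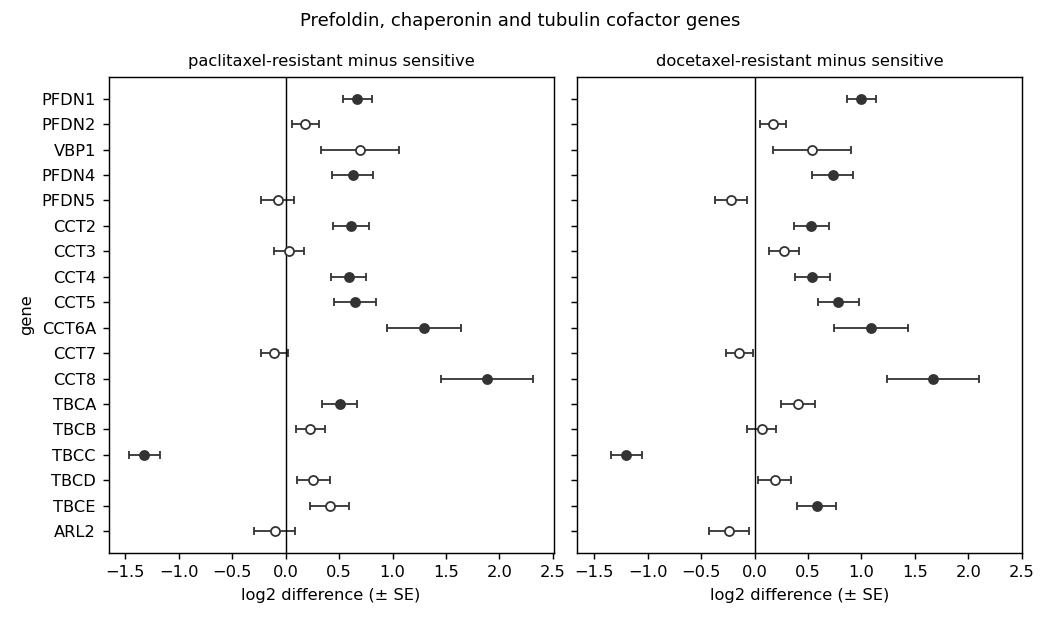
Log2 difference (± SE) of the measured prefoldin, chaperonin and tubulin cofactor genes, for paclitaxel-resistant minus sensitive and docetaxel-resistant minus sensitive cells, with filled points for called genes. TBCC lies lowest, at -1.32 and -1.20, and CCT8 highest, at 1.89 and 1.67.

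Facts of the arrays bear on these values as follows. Array medians ran from 33.7 to 43.9, and 24.0 to 27.0% of probe sets were under 16. The 3' minus 5' log2 difference of the GAPDH control probe sets was 0.0935 to 0.201 in paclitaxel-resistant, 0.0067 to 0.130 in docetaxel-resistant and 0.0145 to 0.0389 in sensitive arrays, and the same measure for actin was 0.17 on paclitaxel-resistant replicate 1 and at most -0.02 on the others. The part of RNA quality in the differences between lines was not tested. KRT18, an epithelial keratin, averaged 3154 in paclitaxel-resistant, 3325 in docetaxel-resistant and 3640 in sensitive cells, and EPCAM was near background in all 3. Of the 6 epithelial markers KRT7 alone was called, higher in both resistant lines than in sensitive cells on its brightest probe set (0.87 for paclitaxel-resistant, 0.55 for docetaxel-resistant) and with the opposite sign on the other. Of the 4 mesenchymal markers SPARC was higher and VIM and FN1 were lower in both resistant lines, and none of the 3 luminal receptors was called. VIM, a mesenchymal filament protein, averaged 5223 in paclitaxel-resistant, 4682 in docetaxel-resistant and 8335 in sensitive cells, and was lower in paclitaxel-resistant (-0.60, limma adjusted p 0.00831) and docetaxel-resistant cells (-0.74, adjusted p 0.00254) than in sensitive ones. The part of this change of markers in the tubulin values was not tested.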

How the data were processed

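The members and all lists were chosen with earlier results of these data known. Total RNA of 9 cultures was measured on arrays. The deposited values are probe set intensity on a linear scale, which the authors made with Affymetrix Expression Console 1.1.2 and PLIER, per the submitters' processing notes. The authors' background correction and normalization were not stated in the labels. All 9 columns were used, and no 2 arrays shared more than 0.234% of values. Precision is limited by the number of arrays.

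Groups came from the sample titles. Intensities became log2(intensity + 16), which understates changes of dim probe sets. Array medians differed by 0.27, so arrays were quantile-normalized. In R 4.3.3, limma 3.58.1 fitted 3 group means to 22215 human probe sets (68 control probe sets left out) with eBayes (6 residual and 5.82 prior degrees of freedom), 3 two-sided contrasts and Benjamini-Hochberg adjustment within each, called below 0.05. Genes were named from GEO's platform annotation (19065 probe sets with 1 gene, 1043 with several, 2107 with none). A related gene or marker was read from the brightest of the probe sets that named it alone. Named were all beta-tubulin probe sets and up to 5 called related genes per contrast with the smallest adjusted p. The other called related genes, and the markers given with values, were chosen with their values known. The rule for genes most like a called beta-tubulin named none. Shares used deposited intensities of the brightest probe set per isotype, with exact permutation tests. The fit was tested on simulated data. Alternatives covered offset, scaling, filters, spread model, probe set choice, replicate block and leaving out arrays.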

Additional observations from a re-analysis of the deposited data

Results flagged for a closer look

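TUBB4B probe set 208977_x_at drew attention because, after normalization, every paclitaxel-resistant array lay above and every docetaxel-resistant array below every sensitive array. The log2 difference for paclitaxel- minus docetaxel-resistant was 0.37, and it did not pass the test (limma adjusted p 0.188). In the deposited values the docetaxel-resistant arrays overlapped the sensitive ones.

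TTLL1 differed between the resistant lines by 0.86 (limma adjusted p 0.00908), with all paclitaxel-resistant arrays above all others. Over the alternatives run its adjusted p stayed at or below 0.0475.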

How the results depend on the processing

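Over 21 alternatives, 9 of 756 beta-tubulin values were called, and 22 had the opposite sign, none of those called. Leaving out any 1 array gave 0 called beta-tubulin probe sets in each comparison. With an offset of 64 the called probe sets numbered 3 for paclitaxel-resistant minus sensitive (2 isotypes), 1 for docetaxel-resistant minus sensitive (1 isotype) and 1 between the resistant lines (1 isotype). With a spread prior that follows intensity and downweights outliers they numbered 2 (1 isotype) for paclitaxel-resistant minus sensitive and 1 (1 isotype) between the resistant lines. With array medians set equal 1 was called for docetaxel-resistant minus sensitive. Without _x_at and _s_at probe sets the TUBB share differed by -1.78 points for paclitaxel-resistant minus sensitive, and by 2.16 points, the opposite sign, for paclitaxel- minus docetaxel-resistant. This alternative leaves TUBB4B, TUBB3, TUBB2B and TUBB1 out of the sum and also reads TUBB from 212320_at in place of 211714_x_at, and the part of each change was not tested. The differences of TUBB4B and TUBB3 between the resistant lines, and those of TUBB and TUBB6 from sensitive cells, kept their sign under all alternatives run. Of all probe sets or genes, 1723 to 3970 were called for docetaxel-resistant and 1838 to 4263 for paclitaxel-resistant minus sensitive, and 84 to 518 between the resistant lines (111 to 421 leaving out 1 array, with 137 without docetaxel-resistant replicate 1, 111 without 2 and 145 without 3, and 223 without paclitaxel-resistant replicate 1, 135 without 2 and 155 without 3). The docetaxel-resistant minus sensitive count was 2447 without docetaxel-resistant replicate 3. Fewer tests under the filters and the gene-level fits lower these counts. Related genes called ranged over 2 to 12 for docetaxel-resistant and 5 to 12 for paclitaxel-resistant minus sensitive. Same-numbered passages correlated from -0.40 to 0.29 in their deviations from group means, so the numbers were not taken to pair the samples. With a replicate block the related genes called for docetaxel-resistant minus sensitive numbered 7. The block left 0 beta-tubulin probe sets called in each comparison, with TUBB4B 208977_x_at at an adjusted p of 0.283 (limma) between the resistant lines, and gave 214 calls over all probe sets there against 356 without it.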

Other observations

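Probe sets of tubulin pseudogenes lay near background on all arrays, with intensities between 6.73 and 23.5 for TUBB7P and TUBBP5. The ratio of TUBB4B to TUBB intensity, each from its brightest probe set, was 1.20, 1.02 and 0.948 on the paclitaxel-resistant arrays, 0.874, 0.814 and 0.781 on the docetaxel-resistant arrays and 0.737, 0.709 and 0.870 on the sensitive arrays. It compares 2 probe sets and is read between arrays only.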
